A study of Mus musculus with 12 samples.

Results

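The 10 genes described here encode the classical MHC class I molecule and the machinery that loads it with peptide. They were chosen by symbol, as H2-K1, H2-D1, B2m, Tap1, Tap2, Tapbp, Psmb8, Psmb9, Psmb10 and Nlrc5, from a table of 24421 rows, and all 10 were present and passed the filter on low counts. Every nucleated cell shows fragments of its own proteins to CD8 T cells on class I molecules. The heavy chains H2-K1 and H2-D1 need the light chain B2m to fold, and they receive peptides that the transporter made of Tap1 and Tap2 brings into the endoplasmic reticulum, with Tapbp (tapasin) holding the empty chain at the transporter. Psmb8, Psmb9 and Psmb10 are the catalytic subunits of the immunoproteasome, which replace Psmb5, Psmb6 and Psmb7 and change where proteins are cut, while Nlrc5 is the transactivator of class I genes. Interferon-gamma raises the whole set, and lymphocytes also carry it without added interferon.

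The study asked how loss of CD25, the high-affinity chain of the interleukin-2 receptor encoded by Il2ra, bears on regulatory T cells (Treg), by bulk RNA-seq of 12 sorted libraries from mouse spleen and lymph nodes. There were 4 groups of 3 libraries. KO eTreg and WT eTreg were CD62L-low effector Treg with CD25 deleted or intact, and KO cTreg and WT cTreg were CD62L-high central Treg with CD25 deleted or intact. All mice received 2 mg/kg tamoxifen intraperitoneally for 5 days, and cells harvested 10 days after induction were sorted on viability, CD4, GFP and tdTomato. The labelled alleles are a CD25 allele, an R26 tomato reporter and a Foxp3 eGFP-ERT2 allele, and the series' design text calls the deletion Treg-specific and inducible. The genotype field gives CD25FL/FL to the WT libraries and CD25WT/WT to the KO libraries, the reverse of the titles and the cell type field, which were followed. KO cells were also gated as CD25-low, a gate that WT cells did not pass through, and each library pooled 2 to 3 mice. No strain, age or sex is used here.

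Il2ra, the deleted gene, averaged 124 ± 7.88 CPM in KO eTreg against 523 ± 51.4 in WT eTreg, and 116 ± 5.79 CPM in KO cTreg against 560 ± 31.8 in WT cTreg (CPM, a gene's counts relative to the library total after TMM scaling, SD, n = 3 each), which follows the titles. The part of the CD25-low gate on KO cells in this difference was not tested. Total counts ran between 14567313 and 19121577 per library, and the 10 genes took 0.703 to 0.84% of them. The ribosomal RNA precursor Rn45s took 3.19 to 3.32% of counts in KO eTreg, 4.11 to 4.34% in WT eTreg, 18.1 to 18.5% in KO cTreg and 22.4 to 24.4% in WT cTreg. The 6 T cell and Treg markers summed to 2490 to 4370 CPM and did not move together. Foxp3, the transcription factor that defines Treg, averaged 176 ± 15.3 CPM in KO eTreg against 244 ± 12.9 in WT eTreg (log2 fold change -0.48, adjusted p = 0.000205 by edgeR), and 227 ± 8.65 CPM in KO cTreg against 392.5 ± 12.6 in WT cTreg (-0.79, 1.47e-07). Ikzf2 (Helios) was higher in KO in both subsets (0.22 in eTreg and 0.40 in cTreg), and Cd4 was called higher in KO cTreg (0.47). Their part in the differences between KO and WT was not tested. Summed B cell markers stayed at 7.63 to 15.6 CPM and CD8 T cell markers at 5.48 to 12.3 CPM. In bulk RNA, fewer cells of a type and less RNA per cell cannot be told apart. P-values measure the spread between these pooled libraries only.

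Of the 10 genes, 7 lie in the MHC on chromosome 17 (GRCm38, GENCODE vM21): Tapbp at chr17:33915899-33929292 on the plus strand, H2-K1 at chr17:33996017-34000347 on the minus strand, Psmb9 at chr17:34181987-34187764 on the minus strand, Tap1 at chr17:34187553-34197225, Psmb8 at chr17:34197721-34201454 and Tap2 at chr17:34203527-34216321 on the plus strand, and H2-D1 at chr17:35262730-35267499 on the plus strand. B2m lies at chr2:122147686-122153083 on the plus strand, Nlrc5 at chr8:94434356-94527272 on the plus strand and Psmb10 at chr8:105935735-105938444 on the minus strand. Psmb9 and Tap1 run head to head and overlap by 212 bp on opposite strands. The setting of the authors' counting for strand is not known, so reads in that overlap cannot be assigned. B2m lies inside Patl2 on the opposite strand, but Patl2 had 0 to 13 counts per library beside 18481 to 42807 for B2m. Nlrc5 shares 748 bp with 9330175E14Rik on the opposite strand (123 to 202 counts beside 9857 to 13582). Psmb10, Psmb8, Tap2 and Tapbp also overlap annotated antisense or noncoding genes that have no count here. Tapbp shares 3422 bp with Zbtb22 on the same strand, which had 365 to 654 counts beside 5726 to 9566 for Tapbp. H2-K1 and H2-D1 resemble other class I chains. Of the 50-base stretches of the longest transcript, 8.11% for H2-K1 and 14.3% for H2-D1 also occur in another gene, so these counts are the least certain of the 10. The share was 2.00% for Tapbp, under 1% for Tap1 and Tap2, and 0 for the other 5 genes. H2-L, another class I chain, averaged 1441 CPM in WT cTreg and 834.5 CPM in WT eTreg, beside 1890 and 1184 CPM for H2-D1. How far H2-D1 and H2-L share reads was not tested, so the uncertainty of H2-D1 may be larger than its share of 50-base stretches.

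Because the set is known for shared promoter elements, the promoters of 4 genes are shown, B2m, H2-K1, H2-D1 and Psmb9, whose window also holds most of the Tap1 promoter (275 bp shared). Each runs from 250 bases before to 50 bases after the RefSeq start on GRCm38.p6, written 5′ to 3′ on the strand of the gene. Capitals mark matches, on either strand, to an interferon-stimulated response element (GAAA and GAAA with 2 free bases between, or GAANNGAAA), a strict NF-kappaB site, a STAT site (TTCNNNGAA), the core of the X2 box (TGACG) and the Y box (ATTGG).
B2m, chr2:122147437-122147736, plus strand: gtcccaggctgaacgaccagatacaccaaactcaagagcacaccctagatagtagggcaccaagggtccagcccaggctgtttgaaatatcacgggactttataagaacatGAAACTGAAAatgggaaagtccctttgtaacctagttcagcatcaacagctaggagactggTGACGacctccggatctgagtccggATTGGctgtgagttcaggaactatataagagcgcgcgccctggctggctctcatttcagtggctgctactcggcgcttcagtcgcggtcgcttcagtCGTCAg
H2-K1, chr17:34000298-34000597, minus strand: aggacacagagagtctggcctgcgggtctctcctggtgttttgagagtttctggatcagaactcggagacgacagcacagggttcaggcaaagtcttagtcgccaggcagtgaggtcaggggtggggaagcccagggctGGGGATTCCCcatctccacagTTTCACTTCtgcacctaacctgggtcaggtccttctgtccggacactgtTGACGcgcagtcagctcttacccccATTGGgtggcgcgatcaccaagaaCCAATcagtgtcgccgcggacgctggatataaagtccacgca
H2-D1, chr17:35262844-35263143, plus strand: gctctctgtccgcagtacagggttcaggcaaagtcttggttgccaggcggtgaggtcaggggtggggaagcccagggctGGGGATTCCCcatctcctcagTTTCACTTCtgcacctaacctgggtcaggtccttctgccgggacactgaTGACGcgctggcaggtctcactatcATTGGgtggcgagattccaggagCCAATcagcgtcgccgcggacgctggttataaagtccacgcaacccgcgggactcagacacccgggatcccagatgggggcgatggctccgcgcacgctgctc
Psmb9, chr17:34187281-34187580, minus strand: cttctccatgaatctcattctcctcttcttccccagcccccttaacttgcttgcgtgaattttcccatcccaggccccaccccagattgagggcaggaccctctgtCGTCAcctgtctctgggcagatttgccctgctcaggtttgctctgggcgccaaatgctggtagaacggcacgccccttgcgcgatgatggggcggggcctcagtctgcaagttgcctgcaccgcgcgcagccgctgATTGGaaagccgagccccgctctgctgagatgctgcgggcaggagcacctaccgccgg

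RefSeq windows were matched for 8 of the 10 genes, all but Nlrc5 and Tap2, with 2 windows for H2-K1, of which the one shown starts further upstream on the gene's strand. The H2-K1 and H2-D1 windows were identical at 88.3% of 239 aligned bases, and both held the strict NF-kappaB site, which 0.107% of 32851 mouse promoters hold, and GAANNGAAA, held by 7.52%. B2m alone held the response element with GAAA on both sides (3.44% of promoters) and Psmb8 alone held TTCNNNGAA (8.30%). TGACG (20.8% of promoters) was present in B2m, H2-D1, H2-K1, Psmb9 and Tap1, and ATTGG (37.4%) in those 5 and Tapbp. In B2m, H2-K1 and H2-D1 the TGACG and ATTGG lay exactly 20 bases apart, an arrangement that 0.0944% of promoters hold and that was searched for after the sequences had been seen. A match describes letters and not binding.

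Compared per length (CPM per kb of exon), B2m was the most abundant of the 10 in every group, followed by H2-K1, H2-D1 and Tapbp, and Psmb9 was the least abundant, below Psmb10 in every library. The length counts all annotated exons of a gene, 3660 bp for Psmb9 and 1705 bp for Psmb10. In CPM, before division by length, Psmb9 lay above Psmb10 in every library. The orders given here thus rest on the lengths used. B2m averaged 2620 ± 94.7 CPM per kb in KO eTreg, 2390 ± 153 in WT eTreg, 1860 ± 37.8 in KO cTreg and 1720 ± 114 in WT cTreg (SD, n = 3 each). H2-K1 averaged 615 ± 23.8 in KO eTreg, 603 ± 36.4 in WT eTreg, 901 ± 17.4 in KO cTreg and 887 ± 42.8 CPM per kb in WT cTreg. H2-D1 lay below H2-K1 in all 12 libraries, at 430 to 484 CPM per kb in eTreg and 686 to 801 in cTreg. Tapbp came next, at 95.6 to 107 CPM per kb in eTreg and 132 to 161 in cTreg. Nlrc5, Psmb8, Tap1 and Tap2 formed a middle group, with Nlrc5 at 72.8 to 86.3 CPM per kb in eTreg and 93.1 to 107 in cTreg. Psmb8 lay above Tap1 in every library of WT eTreg, KO cTreg and WT cTreg, by small margins in KO cTreg. Their order changed between libraries in KO eTreg. Tap2 lay below both in eTreg and in KO cTreg. In WT cTreg its range overlapped that of Tap1 (67.3 to 76.2 CPM per kb for Tap2, 67.4 to 82.9 for Tap1). Within each WT cTreg library Tap2 was still the lower, barely so in replicate 2. Psmb10 lay at 21.5 to 26.4 CPM per kb in eTreg and 47.5 to 63.5 in cTreg, and Psmb9 at 14.8 to 17.4 in eTreg and 25.1 to 35.7 in cTreg.

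**Figure D1:**
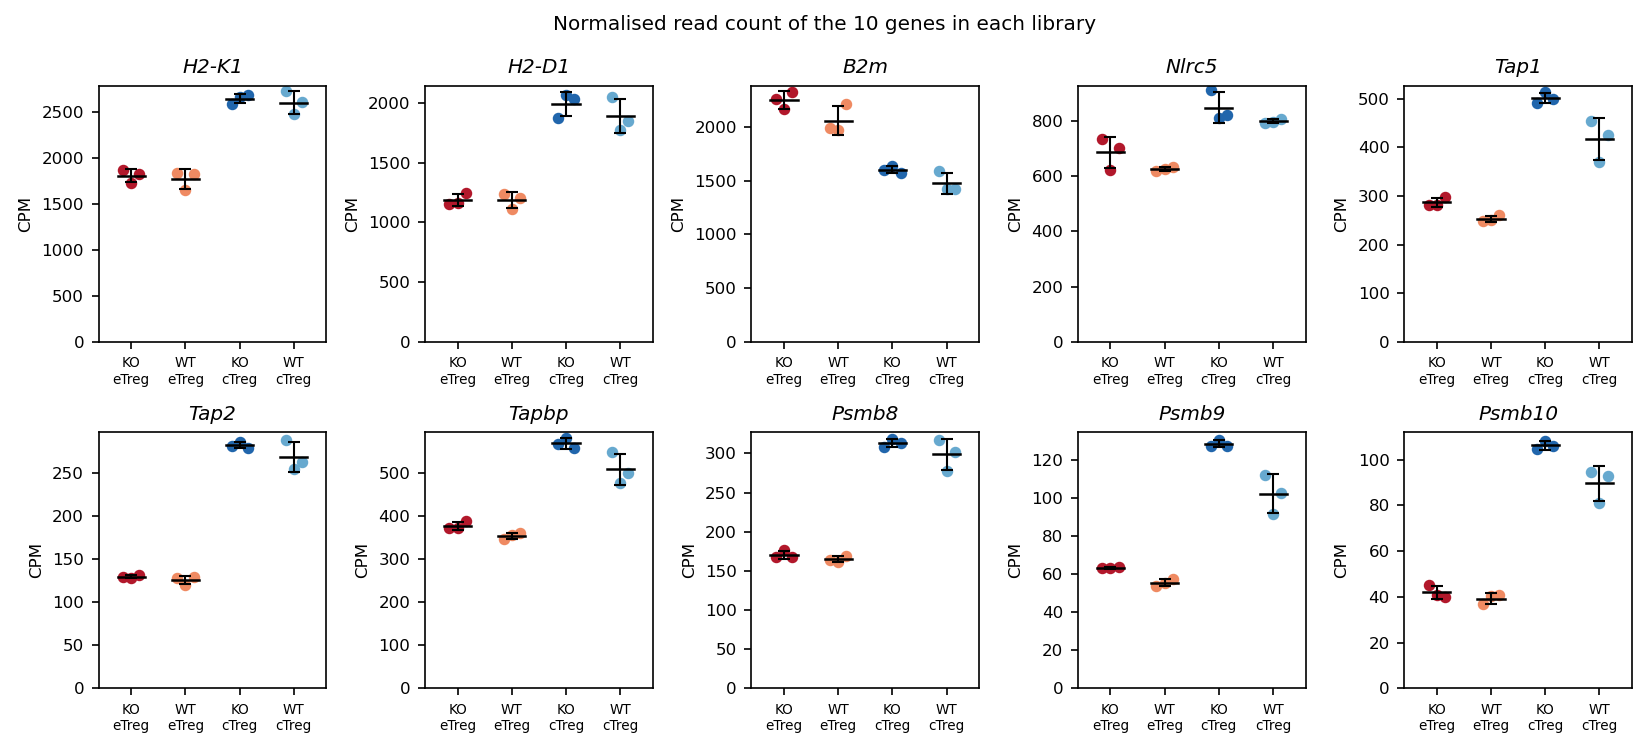
Normalised read count (CPM, y axis from 0) of each gene in the 12 libraries, 3 points per group, with the mean and SD in black. B2m alone is higher in both eTreg groups than in both cTreg groups. Psmb9, Tap1, Tapbp, Psmb10 and, by a small margin, Nlrc5 are higher in the 3 KO cTreg libraries than in the 3 WT cTreg libraries.

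Loss of CD25 in central Treg was accompanied by small increases in part of the set. Of the 10 genes, 4 were called higher and 0 lower in KO cTreg than in WT cTreg, by edgeR's quasi-likelihood test at an adjusted p (Benjamini-Hochberg over 12461 genes) under 0.05. In the same comparison 27.5% of all genes tested were called, 14.8% higher and 12.6% lower. All 10 differences were positive, with a median log2 fold change of 0.10, beside a median of 0.0014 over all genes. The 4 genes were 2 immunoproteasome subunits, Psmb9 and Psmb10, and 2 loading genes, Tap1 and Tapbp, and no class I chain was among them.

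Psmb9, the immunosubunit that takes the place of Psmb6, had the largest difference. It stood at 128, 131 and 127 CPM in the KO cTreg libraries, against 112, 91.8 and 103 CPM in the WT cTreg libraries. The KO libraries lay close together and above all 3 WT libraries, with a log2 fold change of 0.33 ± 0.06 (SE, adjusted p = 0.000557 by edgeR). Tap1, a subunit of the peptide transporter that runs head to head with Psmb9, had 491, 513 and 499 CPM in KO cTreg, against 454, 369 and 426 CPM in WT cTreg. The groups did not overlap, and Tap1 rose by 0.27 ± 0.06 on the log2 scale (SE, adjusted p = 0.00370 by edgeR). Psmb10, which replaces Psmb7, had 104.5, 108 and 106 CPM in KO cTreg, against 94.8, 81.0 and 93.0 CPM in WT cTreg, a log2 fold change of 0.25 ± 0.07 (SE, adjusted p = 0.00948 by edgeR) with no overlap. Tapbp had 568.5, 583 and 558 CPM in KO cTreg, against 549.5, 478 and 500.0 CPM in WT cTreg. Its groups did not overlap either, and the log2 fold change was 0.16 ± 0.05 (SE, adjusted p = 0.0270 by edgeR). In each of the 4 genes WT cTreg replicate 2 was the lowest library.

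Those calls differ in how much they rest on single libraries. Without WT cTreg replicate 2, 2 of the genes were called, since Psmb10 had an adjusted p of 0.0544 and Tapbp of 0.123 by edgeR, and without WT cTreg replicate 1, 5 were called. Tapbp also missed the threshold when WT cTreg replicate 3 or KO cTreg replicate 2 was left out (adjusted p = 0.0907 and 0.118 by edgeR), when an offset for transcript length and GC content was fitted (0.0557), and with the 6 cTreg libraries alone (0.0671). The share of Rn45s also differed in this comparison, at 18.1 to 18.5% of counts in KO cTreg against 22.4 to 24.4% in WT cTreg, and 4 of the 10 genes were called with scaling without Rn45s.

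The other 6 genes were not called in KO cTreg. B2m had 1595, 1635 and 1570 CPM in KO cTreg, against 1589, 1420 and 1420 CPM in WT cTreg, with a log2 fold change of 0.12 ± 0.06 (SE, adjusted p = 0.159 by edgeR). Its adjusted p was 0.0371 without WT cTreg replicate 1. Nlrc5 had 910.5, 808 and 820.0 CPM in KO cTreg, against 790.5, 796 and 806 CPM in WT cTreg. Its groups did not overlap, yet the log2 fold change of 0.09 ± 0.06 had an adjusted p of 0.317 by edgeR. H2-D1, Tap2 and Psmb8 each had a log2 fold change of 0.07 with overlapping groups. H2-K1 had the smallest difference, at 2589 to 2687 CPM in KO cTreg against 2476 to 2727 CPM in WT cTreg, a log2 fold change of 0.02 ± 0.06 that was -0.024 with the length and GC offset.

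In effector Treg the same 10 differences were again positive, with a median log2 fold change of 0.09 beside 0.00698 over all genes, but 0 of the 10 passed the threshold by edgeR, where 6.65% of all genes were called (3.25% higher and 3.40% lower). DESeq2 and limma-voom also called 0, and 4 of the 10 had an unadjusted p under 0.05 by edgeR. The share of all genes at that unadjusted threshold is not given here, so counts at it describe the listed genes only. Psmb9 had 63.2, 63.1 and 63.8 CPM in KO eTreg, against 54.0, 55.4 and 57.4 CPM in WT eTreg, with a log2 fold change of 0.19 ± 0.06 (SE, adjusted p = 0.0844 by edgeR). Tap1 had 281, 280.4 and 298 CPM in KO eTreg, against 249, 249.6 and 260.0 CPM in WT eTreg, with a log2 fold change of 0.18 ± 0.06 (SE, adjusted p = 0.0988 by edgeR). Neither gene's groups overlapped, nor did those of Tapbp, at 372 to 388 CPM in KO eTreg against 347 to 360 CPM in WT eTreg (log2 fold change 0.09 ± 0.05, adjusted p = 0.373 by edgeR).

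B2m had 2263, 2163 and 2325 CPM in KO eTreg, against 1990, 1974 and 2210 CPM in WT eTreg, and the lowest KO library lay below the highest WT library. Its log2 fold change was 0.13 ± 0.06 (SE, adjusted p = 0.231 by edgeR). Nlrc5 had 733, 622 and 701 CPM in KO eTreg, against 618, 626 and 633 CPM in WT eTreg, where KO replicate 2 fell within the WT range. The heavy chains differed least. H2-K1 had a log2 fold change of 0.03 and H2-D1 of 0.01, and scaling by library size without Rn45s turned both negative, to -0.0043 for H2-K1 and -0.025 for H2-D1.

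Same-numbered KO and WT eTreg libraries deviated together from their group means (r = 0.329, 0.474 and 0.209 over genes). With the replicate number as a block in these 6 libraries, 3 of the 10 genes were called higher by edgeR, Tap1 (adjusted p = 0.00421), Psmb9 (0.0322) and B2m (0.0439), and 1712 genes were called in all. Without the block the same 6 libraries gave 1 of the 10, Tap1 (adjusted p = 0.0415). With the length and GC offset over 12 libraries there were 2, Psmb9 (0.0281) and Tap1 (0.0386). Without WT cTreg replicate 1, which enters the shared estimate of spread, Psmb9 was called (0.0371), and without WT cTreg replicate 2 both Psmb9 and Tap1 were (0.0329 and 0.0281). The eTreg count ran between 0 and 3 over the settings tried.

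**Figure D2:**
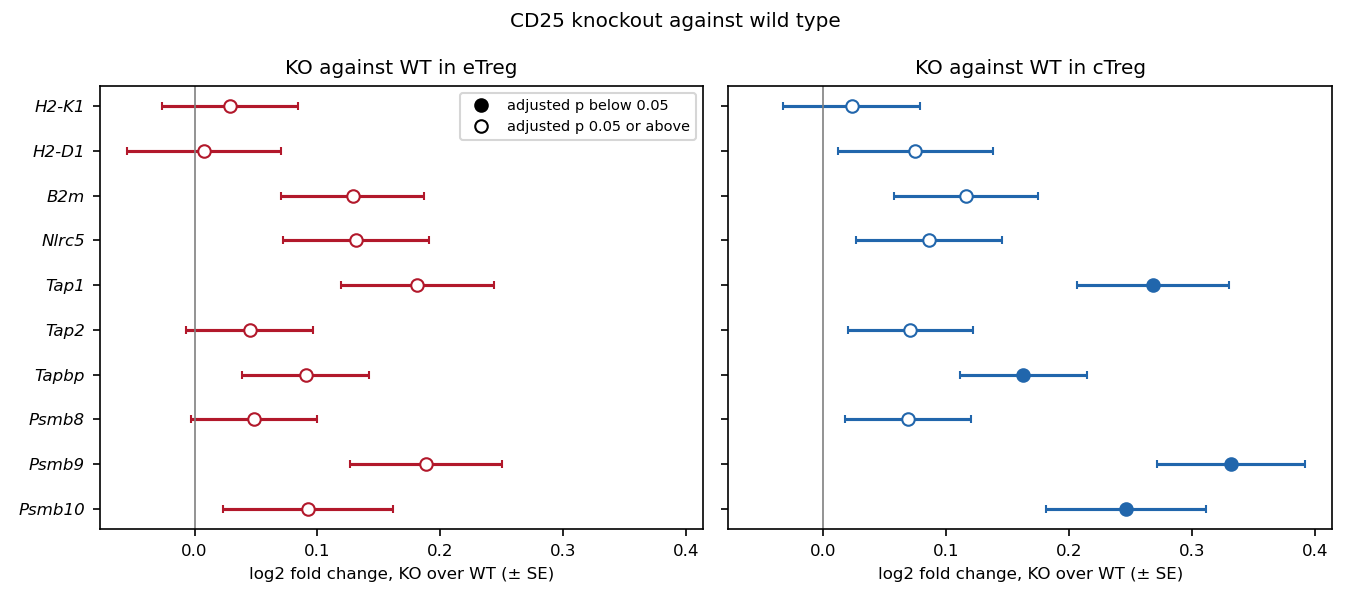
Log2 fold change of KO over WT (x axis, ± SE) for each gene in eTreg (left) and cTreg (right), with filled points for an adjusted p under 0.05. All points lie at or right of 0, Psmb9 is farthest right in both panels, and the 4 filled points are all in cTreg.

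The difference in the number of calls between subsets does not show that the response differed. A direct test of the KO effect in eTreg minus that in cTreg called 0 of the 10 genes by edgeR, by DESeq2 and by limma-voom, and 0 had an unadjusted p under 0.05, where 3.80% of all genes were called (0.803% higher and 3.00% lower). The difference was -0.14 ± 0.09 for Psmb9 (SE, adjusted p = 0.438 by edgeR), -0.15 ± 0.09 for Psmb10 (0.449) and -0.09 ± 0.09 for Tap1 (0.665), all on the log2 scale. For H2-K1 and B2m it was 0.01.

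Effector and central Treg differed in all 10 genes. Of the 10 genes, 9 were lower and 1, B2m, was higher in eTreg than in cTreg, in both genotypes (contrasts that use the same libraries as those of KO with WT), where 72.0% of all genes were called among KO libraries (36.1% higher and 35.8% lower) and 71.5% among WT libraries (35.7% higher and 35.8% lower). In none of the 10 genes did the eTreg and cTreg libraries of a genotype overlap. The share of all genes that separate in this way is not given here, so this does not set the 10 apart. The median log2 fold change of the 10 was -0.774 in KO and -0.697 in WT, beside medians over all genes of -0.000144 and 0.000271. Every subset difference given here has to be read with the GC content of the transcripts, with which the contrast moved across the whole transcriptome, as set out after the values.

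Psmb10 differed most. It had 45.0, 40.9 and 39.95 CPM in KO eTreg, against 104.5, 108 and 106 CPM in KO cTreg, a log2 fold change of -1.34 ± 0.07 (SE, adjusted p = 4.45e-11 by edgeR). In WT libraries it had 36.7, 40.4 and 40.7 CPM in eTreg, against 94.8, 81.0 and 93.0 CPM in cTreg, a log2 fold change of -1.19 ± 0.07 (adjusted p = 1.65e-10). Tap2 followed, at 128 to 132 CPM in KO eTreg against 279 to 286 CPM in KO cTreg (log2 fold change -1.12) and 120 to 129 CPM in WT eTreg against 254 to 288 CPM in WT cTreg (-1.10). Psmb9 fell by 1.02 in KO and 0.88 in WT on the log2 scale, Psmb8 by 0.88 and 0.86, and Tap1 by 0.81 and 0.72. H2-D1 fell by 0.74 in KO and 0.68 in WT, H2-K1 by 0.55 and 0.56, and Tapbp by 0.59 and 0.52. Nlrc5, their transactivator, fell least, by 0.30 ± 0.06 in KO and 0.35 ± 0.06 in WT (SE, adjusted p = 0.000220 and 5.65e-05 by edgeR).

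B2m went the other way. It had 2163 to 2325 CPM in KO eTreg against 1570 to 1635 CPM in KO cTreg, and 1974 to 2210 CPM in WT eTreg against 1420 to 1589 CPM in WT cTreg. The log2 fold change was 0.49 ± 0.06 in KO (SE, adjusted p = 1.02e-06 by edgeR) and 0.48 ± 0.06 in WT (1.36e-06). Within each library the log2 ratio of B2m to H2-K1 plus H2-D1, which needs no scaling and was chosen after the values were seen, was -0.41 ± 0.01 in KO eTreg, -0.52 ± 0.09 in WT eTreg, -1.54 ± 0.05 in KO cTreg and -1.61 ± 0.04 in WT cTreg (SD, n = 3 each). It was higher in eTreg than in cTreg by 1.12 in KO and 1.08 in WT, with every eTreg library above every cTreg library (exact permutation p = 0.1, two-sided, the smallest that 3 against 3 allows).

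Across all genes the subset difference went with GC content. The longest transcript of B2m has 41.2% GC, and those of the other 9 genes have between 52.5% (Psmb8) and 57.1% (Tapbp). Among all tested genes with a GC value (11947 of 12461, 95.9%), the bin of 2390 genes with the lowest GC content, 25.3 to 43.8%, which holds B2m, had a median log2 fold change of 0.599 in KO and 0.528 in WT. The bin with 51.5 to 55.4% GC, which holds H2-K1, Psmb8, Psmb9 and Nlrc5, had medians of -0.328 in KO and -0.320 in WT. The bin with 55.4 to 84.9% GC, which holds H2-D1, Tap1, Tap2, Tapbp and Psmb10, had medians of -0.71 in KO and -0.669 in WT. B2m, Nlrc5, Tapbp, Tap1 and H2-D1 lay nearest the median of their bin, while Psmb8, Psmb9, Psmb10 and Tap2 lay furthest below it.

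With an offset fitted for transcript length and GC content in each library, 7 of the 10 genes in KO and 8 in WT were called, all lower in eTreg, and the sizes shrank. B2m was no longer called, at 0.10 in KO and 0.04 in WT (adjusted p = 0.115 and 0.516 by edgeR), nor was Tapbp, at -0.01 in both (0.907 and 0.855). H2-K1 was -0.11 in KO (adjusted p = 0.0769) and -0.20 in WT (0.00254). The immunosubunits and Tap2 kept the largest differences, at -0.69 and -0.65 for Psmb10, -0.66 and -0.58 for Psmb9, -0.58 and -0.63 for Psmb8, and -0.57 and -0.61 for Tap2 in KO and WT libraries. Tap1 was at -0.35 and -0.32. An offset of this kind removes any difference that follows GC content or length, whether it arose in the cells or in library preparation, and which of them the contrast holds was not tested. The share of Rn45s moved with the subset as well, as given above, and dendritic cell and macrophage markers (8 genes) summed to 8.26 to 11.2 CPM in eTreg and 1.66 to 6.66 CPM in cTreg. Their part in the result was not tested.

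**Figure D3:**
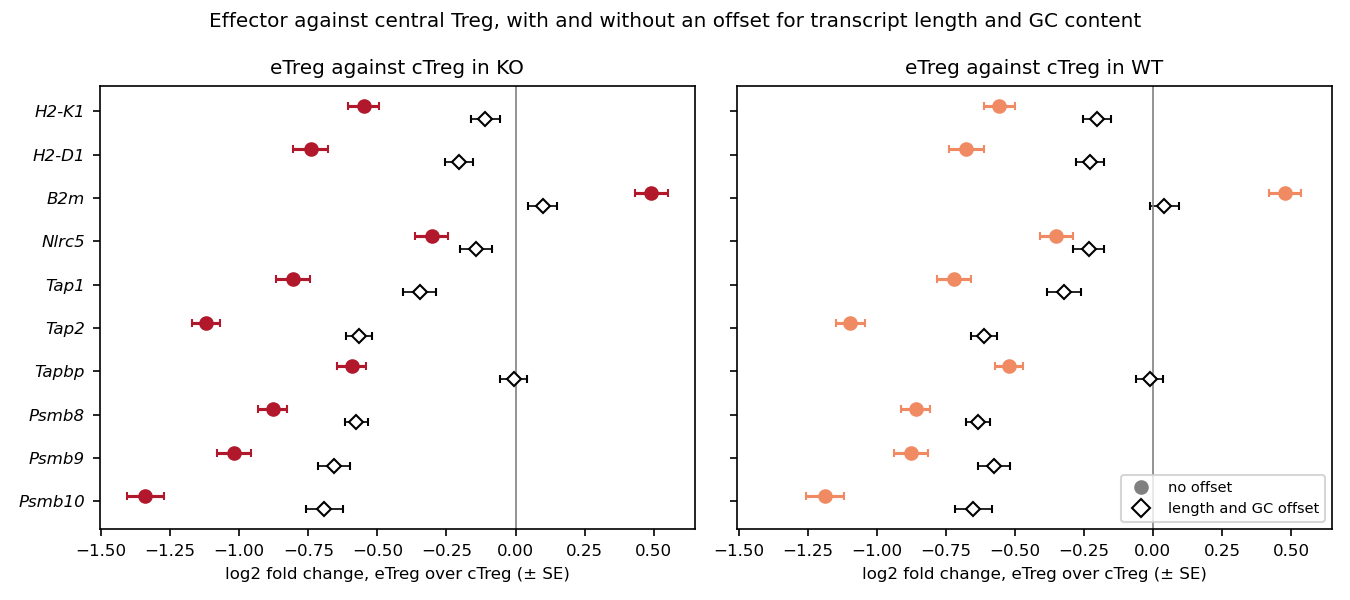
Log2 fold change of eTreg over cTreg (x axis, ± SE) for each gene in KO (left) and WT (right), without an offset (filled circles) and with the offset for transcript length and GC content (open diamonds). With the offset B2m and Tapbp lie near 0, while Psmb8, Psmb9, Psmb10 and Tap2 stay left of -0.5.

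**Figure D4:**
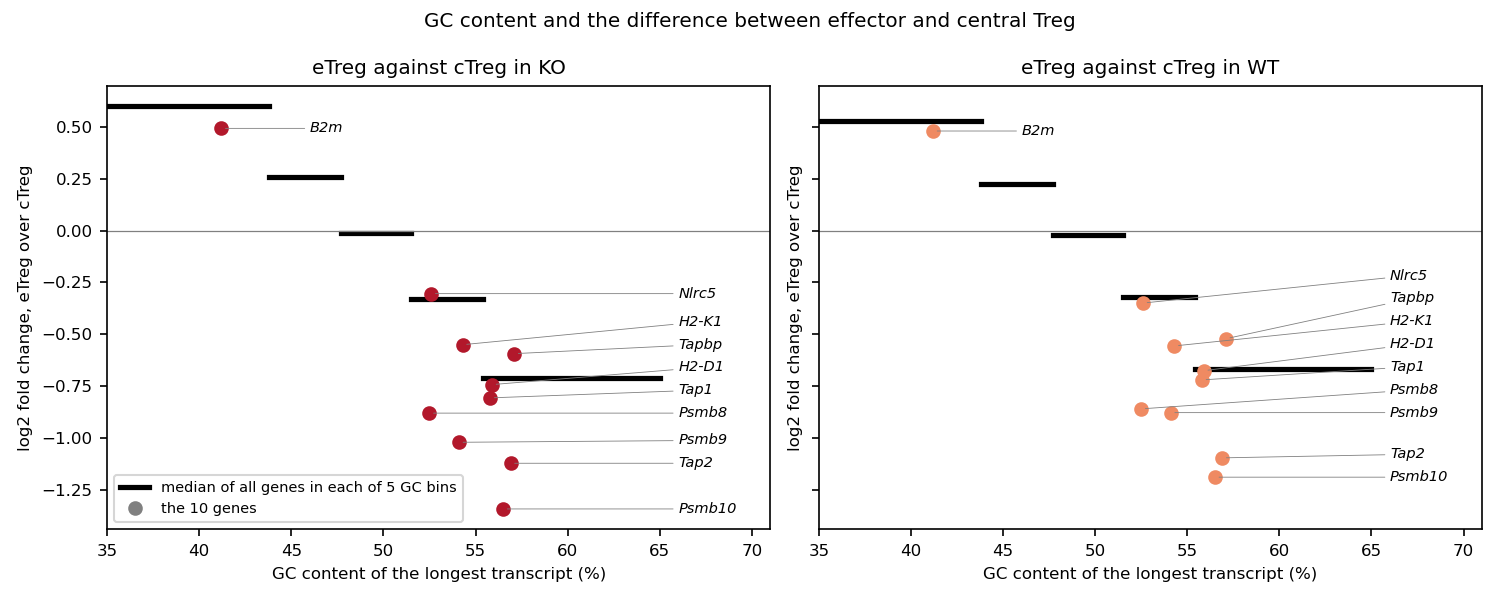
Log2 fold change of eTreg over cTreg (y axis) against the GC content of the longest transcript (x axis, %) for the 10 genes (points) in KO (left) and WT (right). Black bars are the medians of all tested genes in 5 bins of GC content, with the outer bins cut at 35 and 65%, and step down from left to right.

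The subunits that the immunoproteasome displaces allow a comparison within each library. Psmb5 and Psmb6 were also lower in eTreg than in cTreg. Psmb5 averaged 16.8 ± 1.83 CPM in KO eTreg against 42.2 ± 3.14 in KO cTreg, and 16.4 ± 0.777 CPM in WT eTreg against 37.3 ± 1.57 in WT cTreg (SD, n = 3 each), with log2 fold changes of -1.33 and -1.18. Psmb6 had log2 fold changes of -0.68 and -0.59. Psmb7 was called in KO (-0.29, adjusted p = 0.0137 by edgeR; up to 0.0705 without KO cTreg replicate 2 or KO eTreg replicate 1) and not in WT (-0.08, 0.490); with the length and GC offset it was called in both (-0.86 and -0.65). No constitutive subunit was called between KO and WT in either subset by edgeR (at an unadjusted p under 0.05, 2 in cTreg and 0 in eTreg; over the alternatives at most 1 was called, in cTreg), and their log2 fold changes ran from 0.02 to 0.24 in cTreg and from -0.06 to 0.04 in eTreg.

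The log2 ratio of Psmb9 to Psmb6 was 0.97, 0.82 and 0.99 in KO eTreg, against 0.61, 0.69 and 0.73 in WT eTreg. It was 1.40, 1.21 and 1.21 in KO cTreg, against 0.99, 0.97 and 0.92 in WT cTreg. In both subsets every KO library lay above every WT library, by 0.25 ± 0.06 in eTreg and 0.31 ± 0.07 in cTreg (SE, exact permutation p = 0.1, two-sided, the smallest possible, 0.15 after adjustment over 12 ratio tests). Psmb8 to Psmb5 did not separate the genotypes, with differences of KO from WT of 0.02 in eTreg and -0.11 in cTreg, nor did Psmb10 to Psmb7, with 0.06 and 0.02. Between subsets the 3 ratios went different ways. Psmb8 to Psmb5 was higher in eTreg than in cTreg, by 0.45 in KO and 0.32 in WT. Psmb9 to Psmb6 was lower in eTreg, with differences of -0.34 in KO and -0.28 in WT, and so was Psmb10 to Psmb7, with -1.06 and -1.10. In all of these 6 subset contrasts the libraries did not overlap (exact permutation p = 0.1, two-sided, the smallest possible). Psmb10 and Psmb7 differ in GC content (56.5 and 40.8%), Psmb8 and Psmb5 less so (52.5 and 56.6%), and Psmb9 and Psmb6 least (54.1 and 51.6%). The ratios carry no offset for it. With the length and GC offset, Psmb10 was at -0.69 in KO and -0.65 in WT in eTreg against cTreg. Psmb7, with its offset values given above, was then about as far down or further. The lower ratio of Psmb10 to Psmb7 in eTreg therefore did not hold with the offset.

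**Figure D5:**
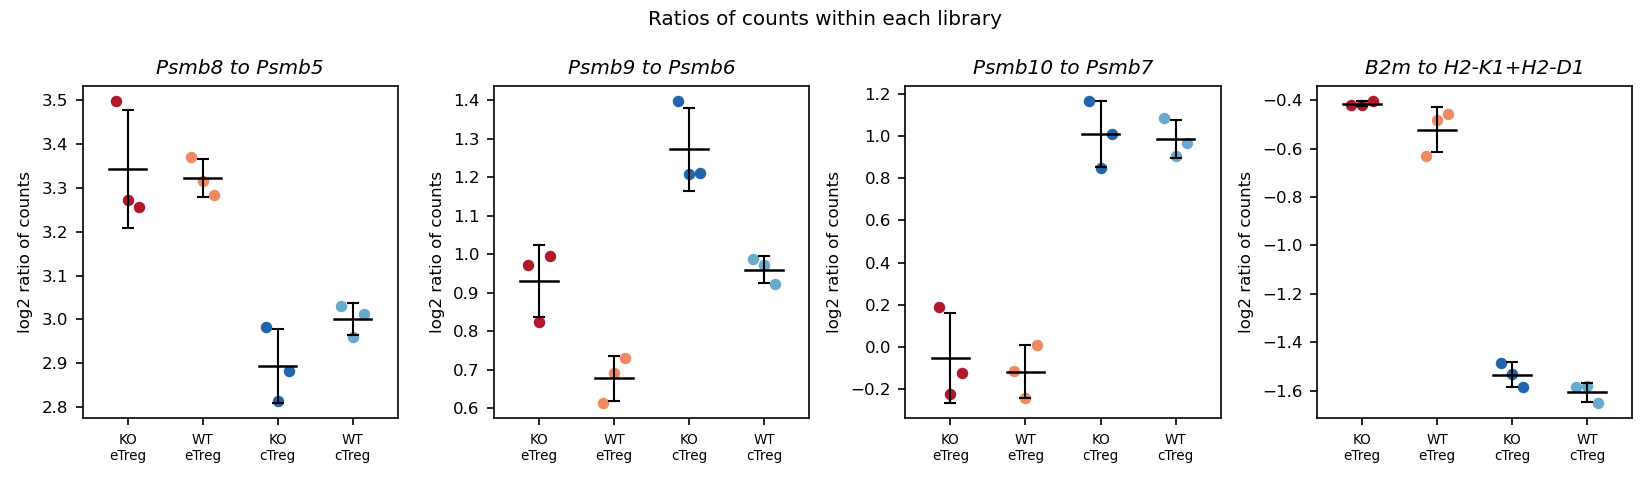
Log2 ratio of counts (y axis, not from 0) of each immunosubunit to the subunit it replaces, and of B2m to the summed heavy chains, in each library, with the mean and SD in black. The ratio of Psmb9 to Psmb6 is higher in KO than in WT libraries of both subsets, and that of B2m to its heavy chains is higher in eTreg than in cTreg libraries.

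Across the 12 libraries, 9 of the 10 genes followed one pattern. The correlation of a gene's log2 CPM with the mean of the other 9 ran from 0.915 (Nlrc5) to 0.994 (Tapbp), and was -0.865 for B2m, with the subset split among what these 12 libraries share. Within groups, after the group means were removed, the correlation between 2 of the genes was positive in 41 of 45 pairs, with a median of 0.626 and a range from -0.418 to 0.95. No such value for other pairs of genes is given here, so whether these pairs stand out was not tested. Among 8541 genes of mean log2 CPM of at least 3, those most like the mean pattern of the 10 by Pearson's r were Elmo2 (0.995), H2-T23 (0.994), Pml (0.992), Akt2 (0.991) and H2-T22 (0.991). By Spearman's rho, 1 of these, Elmo2, stayed among the first 5.

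The other class I and class I-like chains include the nonclassical Q, T and M region genes. Of 24 listed, 20 were tested, and 0 were called in KO against WT eTreg by edgeR (3 at an unadjusted p under 0.05; with the replicate block in the 6 libraries, 3 higher and 1 lower). In KO cTreg 3 of the 20 were called higher, close to the 14.8% over all genes, and 0 lower, with a median log2 fold change of 0.0843 over the list. These were the lipid-presenting Cd1d1 (0.27 ± 0.08, adjusted p = 0.0196 by edgeR), H2-T23, which presents to natural killer receptors (0.21 ± 0.06, 0.0212), and H2-M3, which presents formylated peptides (0.20 ± 0.07, 0.0416). All 3 calls were lost without WT cTreg replicate 2 and without KO cTreg replicate 2, and left-out libraries took the count to between 0 and 4. In eTreg against cTreg, 14 were lower and 1 higher in KO, and 12 lower and 2 higher in WT. Over all genes, 35.8% were called lower in each genotype, and 36.1% higher in KO and 35.7% in WT. With the length and GC offset, 10 of the list were lower in each, and 3 and 2 higher. H2-T24 (-0.93), H2-Q7 (-0.90) and H2-Q9 (-0.90) had the largest differences in WT. H2-Q7 and H2-Q9 had almost the same values, as did H2-Q6 and H2-Q8, and H2-T9 and H2-T22. How reads shared by such pairs were counted is not known. The same reads may enter both genes of a pair, so the counts for this list may take them more than once. Mr1, which presents vitamin metabolites, was higher in eTreg, by 0.94 in KO and 0.65 in WT.

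Among 15 tested of 16 listed assembly and trimming factors, 4 were called higher and 0 lower in KO cTreg. Over all genes, 14.8% were called higher and 12.6% lower in that comparison. Blmh, an aminopeptidase that trims peptides, had the largest difference, 0.54 ± 0.08 (SE, adjusted p = 0.000100 by edgeR), and was called under every alternative tried. Tapbpl, the peptide editor related to tapasin (0.20 ± 0.07, 0.0280), and Uggt1, which re-glucosylates unfolded chains (0.18 ± 0.04, 0.00509), were each lost with the replicate block in the 6 cTreg libraries, and Tapbpl also without any 1 of WT cTreg replicates 1, 2 and 3 and KO cTreg replicates 1 and 2. Leaving out a library gave 2 to 4 calls. In eTreg 0 were called between KO and WT by edgeR (4 at an unadjusted p under 0.05, and 2 higher with the replicate block in the 6 libraries). Of the 9 proteasome activator and assembly genes, Psme2, a subunit of the interferon-inducible activator, was higher in KO cTreg (0.27 ± 0.07, adjusted p = 0.00635 by edgeR) and stayed called under every alternative. Pomp, the chaperone of proteasome assembly, was higher (0.23, 0.0440) and Psme3, of the nuclear activator, was lower (-0.16, 0.0421), both close to the threshold and each lost under 9 alternatives. Of the 11 other subunits of the proteasome core, 3 were called higher in KO cTreg, where 14.8% of all genes were. These were Psma1 (0.25), Psma4 (0.22) and Psmb2 (0.20), and all 11 differences were positive. Left-out libraries took that count to between 0 and 3.

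Regulators of class I transcription were among the genes that rose. Of 15 transcriptional regulators, 8 were called higher and 0 lower in KO cTreg, and 3 higher and 0 lower in KO eTreg, with medians of 0.192 and 0.0741. Over all genes, 14.8% were called higher in KO cTreg and 3.25% in KO eTreg. Without single libraries the cTreg count ran from 4 to 8 and the eTreg count from 1 to 4. Stat2, a factor of type I interferon signalling, rose by 0.23 in KO eTreg and 0.30 in KO cTreg, and Irf2, of the interferon regulatory factor family, by 0.32 and 0.22. Irf8 rose by 0.48 in KO cTreg (adjusted p = 0.0359) and was at -0.25 in KO eTreg (0.410), with a test of the difference at 0.0862. Irf1, named for its known place upstream of this set after its values were seen, had log2 fold changes of 0.23 in both subsets (adjusted p = 0.0679 in eTreg and 0.0206 in cTreg by edgeR, and 0.00176 in eTreg with the replicate block in the 6 libraries).

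Interferon receptors, kinases and feedback genes moved both ways. Of 12, 3 were higher and 4 lower in KO cTreg, and 1 was higher and 1 lower in KO eTreg (2 and 2 with the replicate block in the 6 eTreg libraries). Over all genes, 14.8% were called higher and 12.6% lower in KO cTreg, and 3.25% and 3.40% in KO eTreg. Jak2 rose by 0.31 in KO eTreg and 0.57 in KO cTreg (adjusted p = 0.000892 and 6.01e-07 by edgeR). Socs1, the inhibitor of interferon-gamma signalling, fell by 0.53 in both, and Ifngr2 fell by 0.62 in KO cTreg. Ifng itself was at 4.10, 8.24 and 5.93 CPM in KO eTreg, against 5.15, 7.66 and 4.75 CPM in WT eTreg. It was at 2.08, 1.77 and 2.84 CPM in KO cTreg, against 0.642, 0.216 and 0.384 CPM in WT cTreg, where the groups did not overlap (2.43 ± 0.45, adjusted p = 0.000770 by edgeR). It was the only gene of these lists whose KO effect differed between subsets by edgeR, by -2.37 ± 0.53 (adjusted p = 0.0160), a call lost with limma-voom and without WT cTreg replicate 2, WT cTreg replicate 3 or KO cTreg replicate 3 (adjusted p up to 0.0801). In the same libraries the summed natural killer cell markers (3 genes) were at 13.3 to 16.5 CPM in KO cTreg and 3.23 to 4.81 CPM in WT cTreg, mostly from Eomes, while Ncr1 was at 0 in all libraries of both groups. The part of such cells was not tested.

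Among interferon-inducible genes outside antigen presentation, part of each list was called higher in KO. Over all genes, 14.8% were called higher and 12.6% lower in KO cTreg, and 3.25% and 3.40% in KO eTreg. Of 17 guanylate-binding and immunity-related GTPases, which act against intracellular pathogens, 12 were higher and 0 lower in KO cTreg, with a median log2 fold change of 0.363, and 3 were higher and 1 lower in KO eTreg. Left-out libraries took the counts of higher genes to 9 to 12 in cTreg and 1 to 7 in eTreg, and all alternatives together to 9 to 14 and 1 to 9. With the replicate block in the 6 eTreg libraries, 6 were higher and 1 lower. In KO cTreg the largest rises were in Iigp1 (0.81), Gbp10 (0.59) and Irgm2 (0.55). In KO eTreg Irgm1 rose by 0.40 and Gbp6 by 0.28, while Gbp2b fell by 1.30. Of 30 type I interferon response genes, 13 were higher and 0 lower in KO cTreg and 7 higher and 0 lower in KO eTreg (10 to 15 and 1 to 8 with a library left out). With the replicate block in the 6 eTreg libraries, 16 of the 30 were higher in KO eTreg, and without the block the same libraries gave 8. The largest called differences were in Oas1a (1.06), Oas3 (0.85) and Mx1 (0.79) in KO cTreg, and in Mx1 and Oas3 (0.58 each) in KO eTreg. Of 10 tested class II genes, Cd74, the invariant chain, was higher in KO cTreg (1.07 ± 0.16, adjusted p = 0.000345 by edgeR), and H2-Ob was lower (-0.67 ± 0.11, 0.000373). The eTreg calls of Stat2, Socs1, Gbp6, Mx1 and Oas3 and the cTreg calls of Irf1, Irf8 and Gbp10 were each lost when certain single libraries were left out, while the eTreg calls of Irf2, Jak2, Irgm1 and Gbp2b held under every alternative tried. The lists were compiled with results of these libraries known, and their counts describe them only.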

How the data were processed

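The data are whole-number read counts per gene symbol, deposited by the authors as 1 table of 24421 rows and 12 libraries, with 0 columns left unmapped. Qiagen RNeasy RNA was made into libraries with KAPA RNA HyperPrep with RiboErase, per the labels. The submitters' processing notes name HISAT2 2.2.1, Cell Ranger and mm10, with no role. No source used here gives the counting tool, its annotation or its strand setting.

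Counts were fitted with edgeR 4.0.16 in R 4.3.3 (filterByExpr, TMM, robust quasi-likelihood over all 12 libraries, 12461 genes, Benjamini-Hochberg adjustment, threshold 0.05) in 5 contrasts. The SE is the log2 fold change divided by the square root of F. The alternatives used DESeq2 1.42.0, limma 3.58.1, other scalings and filters, the replicate block, a spline offset for transcript length and GC content (GENCODE vM21), and leaving out each library. Within-library ratios used counts plus 0.5 and exact permutation tests in SciPy 1.17.1. Sequences are from RefSeq on GRCm38.p6.

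The 10 genes, the lists and the tests were chosen with earlier results of these data known. From each other list, up to 3 called genes with the largest change per contrast were named. No label ties a replicate number to a litter or day. From the data, only KO and WT eTreg libraries of the same number deviated together in all 3 pairs (r = 0.329, 0.474 and 0.209 over genes). A withheld item is not reported here.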

Additional observations from a re-analysis of the deposited data

Results flagged for a closer look

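The effect of CD25 loss on Ifng differed between the subsets in a direct test of the difference, KO effect in eTreg minus KO effect in cTreg, at -2.37 on the log2 scale (adjusted p = 0.0160 by edgeR). The call was lost with limma-voom and without WT cTreg replicate 2, WT cTreg replicate 3 or KO cTreg replicate 3, with an adjusted p of up to 0.0801. It rests on low levels, of 1.77 to 2.84 CPM in KO cTreg and 0.216 to 0.642 CPM in WT cTreg, and none of the 10 class I genes showed a difference between subsets that passed this test.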

How the results depend on the processing

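The number of the 10 genes called in KO against WT cTreg was 2 to 5 over the 12 left-out libraries, and in eTreg it was 0 to 2. In eTreg it was 2 with the length and GC offset, 1 with only the 6 libraries of the contrast, and 3 with the replicate block in those 6. The block gave 1712 calls over all genes, beside 829. In cTreg, where numbers do not pair the libraries, the offset, the 6 libraries and their block each gave 3. Over all genes in eTreg there were 455 calls without WT replicate 2, 497 without WT replicate 3 and 462 without KO replicate 3, and leaving out KO cTreg replicate 2 gave 314 for the difference between subsets, beside 474. Scaling without Rn45s split the eTreg calls into 301 higher and 546 lower, beside 405 and 424; the length and GC offset split the cTreg calls into 1598 and 2066, beside 1847 and 1574.

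Some small differences changed sign; the cause was not tested. For H2-K1 in KO against WT, cTreg gave -0.024 with the offset and -0.012 to 0.058 over left-out libraries, and eTreg -0.0043 with scaling without Rn45s and -0.021 to 0.0599 over left-out libraries. For H2-D1 in eTreg the values were -0.025 with scaling without Rn45s, -0.0023 with 6 libraries, -0.0016 with their block, and -0.038 to 0.041 over left-out libraries. In the difference between subsets, H2-K1 was -0.028 and B2m -0.021 with scaling without Rn45s, and H2-K1 -0.0029 with no filter. With the offset H2-D1 was 0.022, Tap2 0.044, Tapbp 0.0043 and Psmb8 0.057. Over left-out libraries H2-K1 ran from -0.044 to 0.0404, B2m from -0.044 to 0.066, Tap2 from -0.0801 to 0.0103, Psmb8 from -0.066 to 0.029 and Nlrc5 from -0.0053 to 0.11. In KO against WT the log2 ratio of Psmb8 to Psmb5 in eTreg ran from -0.059 to 0.062, that of Psmb10 to Psmb7 from -0.056 to 0.101 in cTreg and from -0.056 to 0.149 in eTreg. For the 3 subunit ratios, the mean of paired differences equals the unpaired one, and adding 5 counts changed no sign.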
